A study of Mus musculus with 53 samples.

Results

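The paraventricular nucleus (PVN) and the arcuate nucleus (ARC) of the hypothalamus were compared in wild-type male mice fed a 45% high-fat diet (HFD). All libraries of this diet, sex and genotype were taken, which gave 6 PVN libraries (replicates 23 to 28) and 6 ARC libraries (replicates 44 to 49), or 12 of the 53 libraries of the series. Every mouse was *Nnat*+/+ on a C57BL/6 background, so that both groups carried the intact paternal allele of *Nnat*, the imprinted gene whose loss the series was made to study. Brains were collected at 13 to 14 weeks of age, the nuclei were cut by laser from cresyl violet-stained sections, and total RNA was sequenced as counts of reads per gene. Labelled weights ran from 37.4 to 42.9 g for the PVN libraries and from 37.4 to 43.9 g for the ARC libraries. All PVN libraries lie in 1 sequencing pool and all ARC libraries in another, so nucleus and pool cannot be told apart in any difference given here. Within a group each library carries a weight of its own. Of the 6 weights of each nucleus, 5 recur in the other, in the same order of replicate numbers. The remaining weight, 42.9 g in PVN replicate 24 and 43.9 g in ARC replicate 44, recurs in *Nnat*+/-p libraries, ARC replicate 51 and PVN replicate 30. No label names the mouse, so p-values measure the spread between these libraries, without pairing by mouse in the main test.

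The PVN holds the large oxytocin and vasopressin neurons that release hormone into the blood, and smaller neurons that drive the pituitary through corticotropin- and thyrotropin-releasing hormone. Its neurons form under the control of the transcription factors *Sim1*, *Otp*, *Pou3f2* and *Arnt2*, and it receives much of the output of the ARC. The ARC lies at the base of the third ventricle beside the median eminence, where POMC neurons that curb feeding and AgRP/NPY neurons that drive it sense leptin and other signals of energy stores. The ARC also holds growth hormone-releasing hormone neurons and dopamine neurons that restrain prolactin.

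Promoter sequences of the genes with the largest named differences are given first, since the comparison turns on which genes the cells of each nucleus transcribe. RefSeq windows of the GRCm38.p6 build, from 250 bases before to 50 bases after the start of transcription, were found for 9 of 12 nucleus genes looked up, and 6 are printed 5′ to 3′ on the strand of the gene. *Oxt*, *Avp* and *Sim1* were higher in the PVN, and *Pomc*, *Npy* and *Crabp1* were higher in the ARC. The windows are chr2:130575919-130576218 for *Oxt* on the plus strand, chr2:130582539-130582838 for *Avp* on the minus strand, chr10:50895401-50895700 for *Sim1*, chr12:3954695-3954994 for *Pomc*, chr6:49822460-49822759 for *Npy* and chr9:54764498-54764797 for *Crabp1*, the last 4 on the plus strand. Capitals mark TATAAA, the letters of a TATA box, and AGGTCA, the letters that many nuclear receptors bind, each on either strand (TTTATA and TGACCT on the opposite strand).
Oxt: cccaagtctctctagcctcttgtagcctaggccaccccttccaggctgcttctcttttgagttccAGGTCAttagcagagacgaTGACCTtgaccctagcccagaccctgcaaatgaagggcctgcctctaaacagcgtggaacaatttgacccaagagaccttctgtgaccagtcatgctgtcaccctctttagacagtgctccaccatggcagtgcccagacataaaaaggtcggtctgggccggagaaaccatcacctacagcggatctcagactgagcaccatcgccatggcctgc
Avp: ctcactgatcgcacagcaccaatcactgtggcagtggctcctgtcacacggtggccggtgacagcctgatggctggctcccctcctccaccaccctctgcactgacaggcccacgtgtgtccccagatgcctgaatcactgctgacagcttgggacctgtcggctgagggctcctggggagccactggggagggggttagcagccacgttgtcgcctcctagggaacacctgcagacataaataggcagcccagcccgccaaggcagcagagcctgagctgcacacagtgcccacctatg
Sim1: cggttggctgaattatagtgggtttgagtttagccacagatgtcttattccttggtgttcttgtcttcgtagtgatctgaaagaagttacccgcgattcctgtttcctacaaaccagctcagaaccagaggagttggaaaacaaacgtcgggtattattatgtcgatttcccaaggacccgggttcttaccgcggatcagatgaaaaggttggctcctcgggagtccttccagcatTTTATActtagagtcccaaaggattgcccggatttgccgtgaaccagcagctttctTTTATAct
Pomc: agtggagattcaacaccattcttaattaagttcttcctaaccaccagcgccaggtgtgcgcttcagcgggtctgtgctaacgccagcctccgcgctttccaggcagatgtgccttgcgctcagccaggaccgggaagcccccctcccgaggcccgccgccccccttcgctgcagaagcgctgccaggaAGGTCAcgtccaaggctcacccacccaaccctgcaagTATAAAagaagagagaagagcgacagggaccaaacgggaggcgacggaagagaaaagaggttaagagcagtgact
Npy: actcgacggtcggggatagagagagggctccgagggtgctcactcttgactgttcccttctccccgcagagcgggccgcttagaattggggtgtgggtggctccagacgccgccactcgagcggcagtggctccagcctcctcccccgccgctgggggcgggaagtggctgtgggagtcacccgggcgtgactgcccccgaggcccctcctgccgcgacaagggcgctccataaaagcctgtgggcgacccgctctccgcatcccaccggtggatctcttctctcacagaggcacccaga
Crabp1: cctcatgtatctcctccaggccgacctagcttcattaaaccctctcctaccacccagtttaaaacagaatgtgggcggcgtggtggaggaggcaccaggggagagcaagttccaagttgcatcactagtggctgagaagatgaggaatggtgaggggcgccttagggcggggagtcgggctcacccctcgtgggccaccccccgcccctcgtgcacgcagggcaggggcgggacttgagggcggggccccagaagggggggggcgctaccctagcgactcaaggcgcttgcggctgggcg
The *Oxt* window held AGGTCA at 185 bases before the start on the strand of the gene and at 166 bases before it on the opposite strand. The *Pomc* window held AGGTCA at 62 bases and TATAAA at 25 bases before the start. The *Sim1* window held TATAAA on the opposite strand only, and the windows of *Avp*, *Npy* and *Crabp1* held neither. Over all 32851 windows, 13.6% held TATAAA and 16.3% held AGGTCA on either strand. The windows of the genes higher in the PVN therefore shared neither motif among all 3, nor did those of the genes higher in the ARC. 

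Library totals ran from 5582716 to 8560199 counts in the PVN (median 6877858) and from 3592129 to 18058097 in the ARC (median 5047782), so that the ARC held both the shallowest and the deepest library. Mitochondrial RNA took 26.4% to 37.4% of counts in the PVN and 28.7% to 48.1% in the ARC. Levels are given as counts per 1000000 counts of the library (CPM) after scaling with TMM factors, which ran from 0.96 to 1.37 in the PVN and from 0.68 to 1.03 in the ARC. *Nnat*, at chromosome 2 from 157560078 to 157562522, had 323, 389.8 and 419 CPM as the lowest, median and highest level in the PVN, and 303, 474 and 507 CPM in the ARC. All 12 libraries thus held *Nnat* at a high level, as their wild-type label states. The difference of -0.16 in log2 (SE 0.13) did not pass the test (adjusted p = 0.553, edgeR's quasi-likelihood test).

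A single library of the PVN stood apart and is described before the results. PVN replicate 24 held *Oxt* at 1.09 CPM, *Avp* at 0.780 CPM and *Sim1* at 13.9 CPM, where the other 5 PVN libraries held at least 180, 58.0 and 97.8 CPM. It still held *Crh* at 18.7 CPM and *Trh* at 96.4 CPM, above every ARC library. The same library held *Nkx2-1*, *Bsx*, *Gal* and *Gpr50*, genes of other medial hypothalamic neurons and glia, at 26.0, 15.9, 75.8 and 34.5 CPM, where the other PVN libraries reached at most 1.85, 0.410, 11.1 and 1.44 CPM. To place every library by genes it had no part in choosing, each was left out of the fit in turn and the genes then called at least 4-fold apart were read in it. For genes so chosen as higher in the PVN, PVN replicate 24 lay nearer the other PVN libraries than the ARC mean in 18 of 66 (27.3%), while the other 11 libraries lay nearer their own nucleus in 69.6% to 100% of the genes. For genes chosen as higher in the ARC, the lowest share was that of PVN replicate 28, nearer its own nucleus in 76 of 190 (40%), followed by ARC replicate 49 with 53.8%, PVN replicate 24 with 114 of 165 (69.1%) and the other 9 libraries with 72.3% to 100%. Among the protein-coding genes of this set, replicate 24 lay nearer the PVN in 55 of 103 (53.4%), replicate 28 in 61%, and the other libraries nearer their own nucleus in 68.1% to 100%. Replicate 24 was kept under its label, and the reported genes whose call changed without it are given with and without it. It was set apart by the levels of some of these same genes, so their calls without it are not independent support. PVN replicate 23 held *Oxt* at 180 CPM and *Avp* at 58.0 CPM, the next lowest levels of the group, beside *Gad2* at 246 CPM against 39.4 to 79.0 CPM in replicates 25 to 28.

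**Figure D1:**
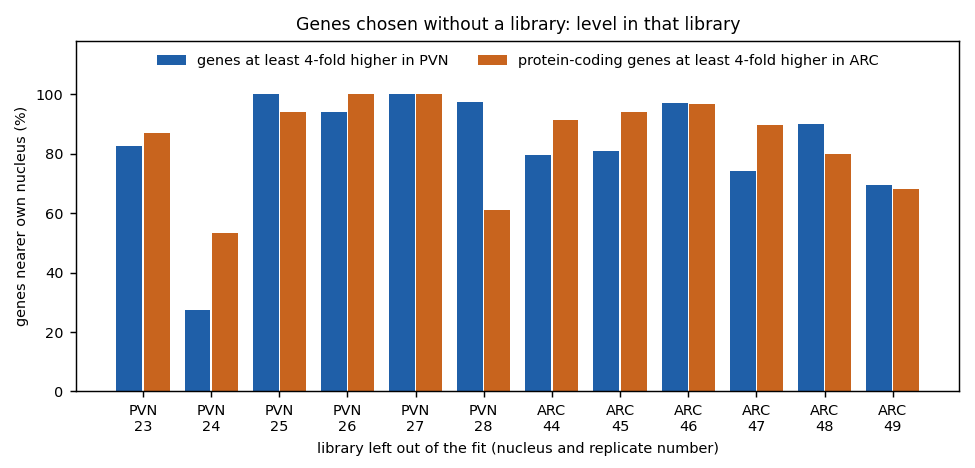
For each of the 12 libraries (x axis, nucleus and replicate number), bars show the share of genes (y axis, %) at which the library lay nearer the mean of its own nucleus than that of the other, on log2(CPM + 0.5). The genes were called at least 4-fold higher in the PVN (blue) or, if protein-coding, in the ARC (orange) in the fit without that library, and the blue bar of PVN replicate 24 stands at 27.3%.

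Of 12847 genes tested, 374 (2.91%) were higher in the PVN and 450 (3.5%) were higher in the ARC at an adjusted p under 0.05. The counts called in each gene list below are to be read beside these shares. At least 4-fold differences were called for 38 genes higher in the PVN (0.296%) and 128 higher in the ARC (0.996%). The 6 PVN libraries all lay above the 6 ARC libraries in 170 genes (1.32%), and all below them in 215 (1.67%). Without PVN replicate 24, 557 of 13079 tested genes were higher in the PVN (4.26%) and 609 in the ARC (4.66%). All 38 genes at least 4-fold higher in the PVN were protein-coding, whereas only 64 of the 128 at least 4-fold higher in the ARC were. With each of the 12 libraries left out in turn, 31 of the 38 PVN genes and 59 of the 128 ARC genes were called in every fit. Over all 22 alternative fits of the whole gene set, 8 of the 38 and 12 of the 128 were called in every one. These fits also changed the tool, the filter, the libraries or the terms. A gene that a fit left untested or gave no adjusted p was counted as not called.

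**Figure D2:**
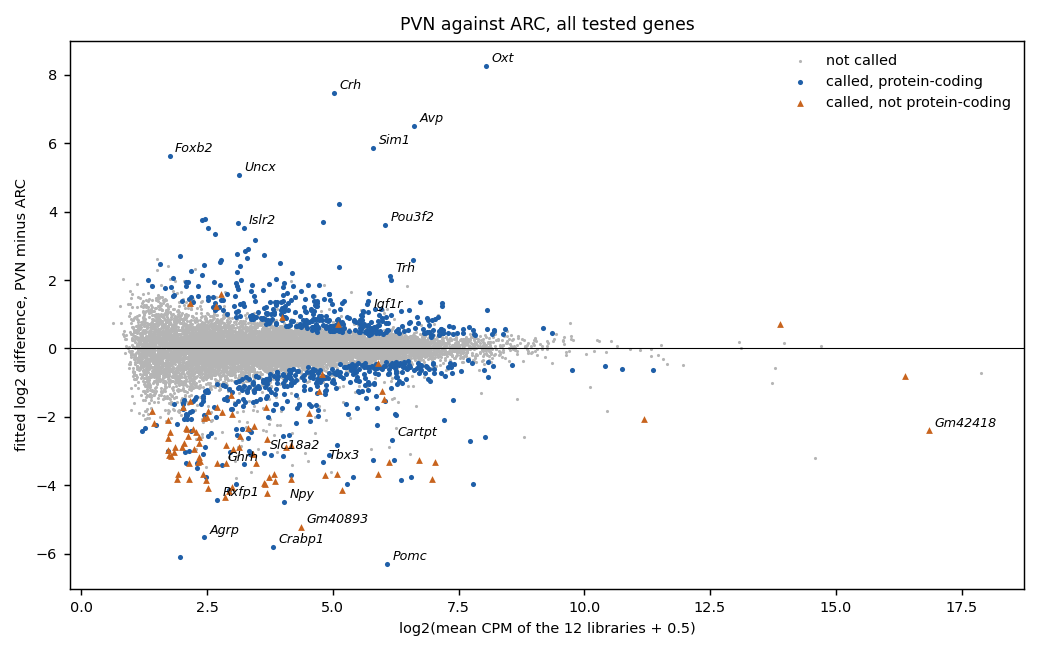
Each point is 1 of the 12847 tested genes, by log2 of its mean CPM over the 12 libraries plus 0.5 (x axis) and its fitted log2 difference, PVN minus ARC (y axis). Blue points are called protein-coding genes and orange triangles called genes that are not protein-coding, and these triangles lie mostly below 0, where 81 of the 87 called genes that are not protein-coding are found.

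All 4 hormone genes of the PVN list were higher in the PVN. *Oxt*, which encodes oxytocin and lies at chromosome 2 from 130576173 to 130577054, had 1.09, 594 and 1028 CPM as its lowest, median and highest level in the PVN, and 0, 1.52 and 4.29 CPM in the ARC. The groups overlapped through PVN replicate 24 only. The log2 difference was 8.27 (SE 1.43, adjusted p = 0.00748, edgeR's quasi-likelihood test), and 8.54 without replicate 24 (adjusted p = 0.000255). *Avp*, which encodes vasopressin and lies on the opposite strand of the same chromosome from 130580620 to 130582554, had 0.780, 234 and 337 CPM in the PVN, and 0, 0.104 and 7.03 CPM in the ARC. Here too only replicate 24 fell among the ARC libraries. The log2 difference was 6.52 (SE 1.36, adjusted p = 0.0199), and 6.79 without replicate 24 (adjusted p = 0.00236). With limma's sample quality weights neither gene was called (adjusted p = 0.469 for *Oxt* and 0.475 for *Avp*), and *Avp* was not called with the non-coding share described further on as a covariate (adjusted p = 0.0763). Per kilobase of exon, the mean level of *Oxt* in the PVN was 975 CPM, the highest of the 4 hormones, and that of *Avp* was 336 CPM.

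*Crh*, which encodes corticotropin-releasing hormone and lies at chromosome 3 from 19693401 to 19695396, had 18.7, 76.2 and 86.3 CPM in the PVN, and at most 0.971 CPM in the ARC, where only replicate 45 held any count. The groups did not overlap. The 12 counts of the ARC make the log2 difference of 7.49 (SE 0.71, adjusted p = 0.000192, edgeR's quasi-likelihood test) uncertain in size, but *Crh* was called in every alternative fit, with an adjusted p of at most 0.00758. *Trh*, which encodes thyrotropin-releasing hormone, had 54.6, 108 and 180.5 CPM in the PVN, and 7.62, 28.9 and 43.4 CPM in the ARC. Every PVN library, replicate 24 included, lay above every ARC library. The log2 difference was 2.12 (SE 0.47, adjusted p = 0.0253), and the call was lost without PVN replicate 25, 26 or 27 or ARC replicate 45 (adjusted p from 0.0535 to 0.0632) and with the non-coding share as a covariate (adjusted p = 0.181).

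**Figure D3:**
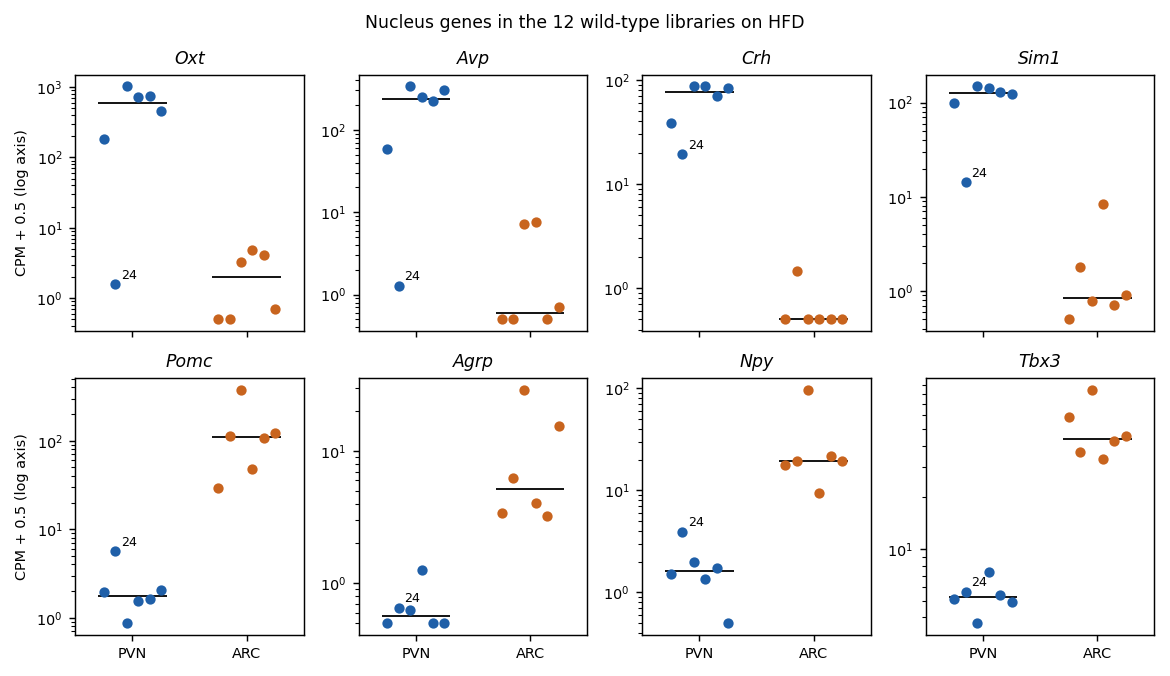
Levels in CPM + 0.5 on a log axis (y) in the 6 PVN (blue) and 6 ARC (orange) libraries, with a bar at each median, for 4 genes higher in the PVN (top) and 4 higher in the ARC (bottom). PVN replicate 24 lies among the ARC libraries for *Oxt* at 1.09 CPM and *Avp* at 0.780 CPM, and apart from them for *Crh* at 18.7 CPM and for *Pomc* at 5.15 CPM.

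Of the 4 tested transcription factors of the PVN list, 3 were higher in the PVN. *Sim1*, which is needed for PVN neurons to form and lies at chromosome 10 from 50894754 to 50989152, had 13.9, 126 and 149 CPM in the PVN, and 0, 0.350 and 8.00 CPM in the ARC. The groups did not overlap, although replicate 24 lay well below the other PVN libraries. The log2 difference was 5.87 (SE 0.85, adjusted p = 0.00324, edgeR's quasi-likelihood test), and with limma's quality weights it was not called (adjusted p = 0.0919). *Pou3f2*, a POU factor of the hormone neurons, had 17.6, 132 and 177 CPM in the PVN, and 3.11, 9.95 and 16.0 CPM in the ARC, with a log2 difference of 3.61 (SE 0.57, adjusted p = 0.00468). *Arnt2*, the partner protein of *Sim1*, was also plentiful in the ARC, at 62.9 to 103.7 CPM, below the 105 to 270.3 CPM of the PVN. Its log2 difference of 1.32 (SE 0.20, adjusted p = 0.0008) was called in every alternative fit. *Otp*, a homeobox factor of the same neurons, had 16.4, 148 and 209 CPM in the PVN and 14.8, 32.9 and 73.4 CPM in the ARC. It did not pass with all libraries (log2 difference 1.81, SE 0.58, adjusted p = 0.0961) and did without replicate 24 (2.05, adjusted p = 0.0135). *Sim2* was too low to be tested.

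Other transcription factors were among the largest differences. *Uncx*, a homeobox factor, had 3.43, 17.2 and 24.3 CPM in the PVN and at most 2.48 CPM in the ARC, and the groups did not overlap (log2 difference 5.08, SE 0.78, adjusted p = 0.00231). *Foxb2*, a forkhead factor, had 1.54 to 9.63 CPM in the PVN and 3 counts in all in the ARC. It had the fifth largest difference of the named genes higher in the PVN (log2 difference 5.64, SE 0.77, adjusted p = 8.28e-05, edgeR's quasi-likelihood test), of a size that the few ARC counts leave uncertain. Both were called in every alternative that tested them. Of 39 tested genes in the list of homeobox and patterning factors, 4 were higher in the PVN (*Ebf3*, *Zic1*, *Zic2* and *Foxp2*) and 3 were higher in the ARC (*Six3*, *Zfhx3* and *Dlx6*). These shares were 2.91% and 3.5% over all tested genes. *Ebf3* had 18.7, 58.5 and 82.7 CPM in the PVN and 0, 2.5 and 13.7 CPM in the ARC, without overlap (log2 difference 3.70, SE 0.76, adjusted p = 0.0189, and 0.11 with the covariate). *Zic1* lay at 1.56 CPM in replicate 24 and at a median of 18.9 CPM in the PVN, against 1.69 to 4.55 CPM in the ARC. It had a log2 difference of 2.75 (adjusted p = 0.0214) that was lost without ARC replicate 45 or 46 (adjusted p = 0.0563 and 0.052), with limma's quality weights, with chow-fed wild-type mice added to the fit and with the covariate. Without PVN replicate 24 its adjusted p was 1.42e-06. *Zic2* was lost without PVN replicate 27 (adjusted p = 0.0719). *Dlx6*, a factor of GABA neurons, was lost without any of replicates 25 to 28 and 44 to 49 (adjusted p from 0.052 to 0.101). *Fezf2*, listed as a gene of the ventromedial hypothalamus, had 1.56, 9.94 and 19.0 CPM in the PVN and at most 1.67 CPM in the ARC (log2 difference 3.80, SE 0.62, adjusted p = 0.00117, and 0.056 with limma's quality weights).

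The other named differences toward the PVN were in genes of various kinds. *Nrn1*, which encodes neuritin, a secreted factor of neurite growth, had 10.3, 72.0 and 110 CPM in the PVN and 0.282, 1.98 and 9.18 CPM in the ARC (log2 difference 4.24, SE 0.76, adjusted p = 0.00926). *Islr2*, a membrane protein of axons, had 10.0, 15.2 and 27.1 CPM in the PVN and at most 3.71 CPM in the ARC. Its log2 difference of 3.52 (SE 0.41, adjusted p = 2.07e-05) was called in every alternative fit. The smallest p toward the PVN was that of *Olfm3*, an olfactomedin-domain protein, whose libraries were tightly grouped at 57.7 to 77.0 CPM in the PVN and 26.4 to 35.9 CPM in the ARC (log2 difference 1.09, SE 0.13, adjusted p = 1.66e-05, edgeR's quasi-likelihood test). *Dscaml1*, a cell adhesion molecule, had 22.6 to 39.8 CPM in the PVN and 9.82 to 13.9 CPM in the ARC (log2 difference 1.45, SE 0.18, adjusted p = 2.42e-05). *Magi3*, a scaffold protein of cell junctions, had 41.8 to 78.0 CPM in the PVN and 24.0 to 35.1 CPM in the ARC (log2 difference 1.08, adjusted p = 9.1e-05). *Olfm3*, *Dscaml1* and *Magi3* did not overlap between nuclei even with replicate 24 in the group. *Bhlhe22* and *Nog*, a neuronal transcription factor and the BMP inhibitor noggin, fell to 1.87 and 1.09 CPM in replicate 24 and stood at medians of 21.1 and 18.9 CPM in the PVN against 1.67 and 2.24 CPM in the ARC. Their adjusted p-values without replicate 24 were 6.91e-05 and 2.57e-06, and neither was called with limma's quality weights or with the covariate. *Nxph4*, a neurexin ligand and the only called gene of the 10 tested in the list of other neuropeptides and secreted ligands, had a log2 difference of 3.18 (adjusted p = 0.0416). It was lost without any of replicates 25 to 28, 44 to 46, 48 and 49 (adjusted p from 0.054 to 0.0914). *Dnah8*, *Pla2r1* and *Cbfa2t3* completed the 15 largest, at log2 differences of 3.68, 3.33 and 2.76.

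Of the 10 tested genes in the list of ARC peptides, 6 were higher in the ARC and none in the PVN. *Pomc*, which encodes the precursor of α-MSH and lies at chromosome 12 from 3954951 to 3960642, had 28.9, 109 and 376 CPM in the ARC, and 0.370, 1.28 and 5.15 CPM in the PVN. Replicate 24 was the highest PVN library, and the groups did not overlap. The log2 difference was -6.30 (SE 0.80, adjusted p = 0.00168, edgeR's quasi-likelihood test), the largest in size toward the ARC of the genes named. *Pomc* was not called with limma's quality weights (adjusted p = 0.0805) or with chow-fed wild-type mice added to the fit (adjusted p = 0.0605). The latter fit held chow-fed PVN replicate 15, which had *Pomc* at 98.4 CPM without TMM factors, as given below. *Agrp*, which encodes the melanocortin antagonist, had 2.71, 4.63 and 28.5 CPM in the ARC, and 10 counts in all in the PVN (log2 difference -5.52, SE 0.90, adjusted p = 0.00231). *Npy*, at chromosome 6 from 49822710 to 49829507, had 8.98, 19.0 and 95.7 CPM in the ARC and 0, 1.13 and 3.43 CPM in the PVN (log2 difference -4.49, SE 0.76, adjusted p = 0.00641). It was not called with limma's quality weights or with the covariate (adjusted p = 0.0663 and 0.066).

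ARC replicate 46 held the highest level of *Pomc*, *Agrp*, *Npy*, *Ghrh* and *Sst* alike. *Ghrh*, which encodes growth hormone-releasing hormone, had 5.34, 8.11 and 26.5 CPM in the ARC and 0.468, 1.10 and 1.54 CPM in the PVN (log2 difference -3.41, SE 0.42, adjusted p = 2.41e-05, edgeR's quasi-likelihood test), and its call was lost with chow-fed mice added (adjusted p = 0.128). *Sst*, which encodes somatostatin, was measured in both nuclei, at 53.7, 107 and 232 CPM in the ARC and 17.8, 26.4 and 48.6 CPM in the PVN (log2 difference -1.92, adjusted p = 0.0167), and it was not called with chow-fed mice added or with the covariate (adjusted p = 0.0608 and 0.147). *Cartpt*, the gene of the CART peptides that POMC neurons also make, had 90.5, 120 and 168 CPM in the ARC and 5.99, 12.7 and 59.6 CPM in the PVN, with replicate 24 as the highest of its group. The log2 difference of *Cartpt* was -2.68 (adjusted p = 0.0147) and grew to -3.41 without replicate 24 (adjusted p = 1.65e-07). *Tac2*, which encodes neurokinin B, and *Gal*, which encodes galanin, were not called with all libraries and were without replicate 24. *Tac2* had 8.42 CPM in that library, at most 0.717 CPM in the other PVN libraries and 3.51 to 23.4 CPM in the ARC, and its adjusted p went from 0.155 with all libraries to 0.000246 without it. For *Gal*, 1 of the genes that set replicate 24 apart, the adjusted p went from 0.698 to 0.00173. *Kiss1* of this list was not matched by symbol and is not analysed here. In bulk tissue, fewer cells of a type and less RNA per cell cannot be told apart in any of these levels.

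*Tbx3*, a T-box factor that maintains the identity of POMC and AgRP neurons and lies at chromosome 5 from 119670669 to 119684724, had 33.0, 43.4 and 83.9 CPM in the ARC, and 3.21, 4.77 and 6.82 CPM in the PVN. Replicate 24, at 5.15 CPM, lay within the range of the other PVN libraries. The log2 difference was -3.33 (SE 0.23, adjusted p = 2.47e-09, edgeR's quasi-likelihood test). *Crabp1*, a retinoic acid-binding protein at chromosome 9 from 54764748 to 54773110, had 10.3, 25.9 and 41.2 CPM in the ARC and at most 0.673 CPM in the PVN (log2 difference -5.81, SE 0.39, adjusted p = 2.47e-09). *Tbx3* and *Crabp1* had the smallest p-values of all genes tested. Of the alternative fits, *Crabp1* lost its call in the 1 with chow-fed mice added (adjusted p = 0.0722). Of the 8 tested transcription factors of the ARC list, *Tbx3* and *Six6* were called (*Six6* at 3.51, 11.9 and 40.4 CPM in the ARC and 0.384, 2.19 and 3.59 CPM in the PVN, adjusted p = 0.0102). *Six6* was not called with quality weights, chow-fed mice or the covariate (adjusted p from 0.0662 to 0.086). *Nkx2-1* and *Bsx* had adjusted p-values of 0.384 and 0.442 with all libraries, and of 6.96e-08 and 2.04e-07 without replicate 24. Both are among the genes that set replicate 24 apart, so the values without it are not independent of that choice. *Isl1* had 20.0 to 45.8 CPM in the ARC and at most 20.0 CPM in the PVN, where replicates 23 and 24 held 12.4 and 20.0 CPM and the others at most 0.247 CPM. It did not pass either way (adjusted p = 0.227, and 0.0877 without replicate 24).

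Of the 4 tested genes of dopamine neurons, 3 were higher in the ARC. *Slc18a2*, the vesicular monoamine transporter, had 9.60, 12.8 and 47.2 CPM in the ARC and 1.11, 2.31 and 4.10 CPM in the PVN, without overlap (log2 difference -3.05, SE 0.44, adjusted p = 0.000637, edgeR's quasi-likelihood test). *Nr4a2*, a nuclear receptor of dopamine neurons, had a log2 difference of -2.49 (SE 0.41, adjusted p = 0.000625, and 0.0844 with chow-fed mice added), and *Ddc*, the decarboxylase that makes dopamine, of -1.36 (SE 0.26, adjusted p = 0.00245). *Th*, the rate-limiting enzyme of the same pathway, had medians of 17.5 CPM in the PVN and 17.4 CPM in the ARC and did not pass (log2 difference -0.28, SE 0.28, adjusted p = 0.635). *Slc6a3*, the dopamine transporter, was below the count filter with all libraries, at 0 to 1.03 CPM in the PVN and 1.65 to 9.32 CPM in the ARC. It was tested and called toward the ARC without any 1 of replicates 23 to 28 or 44 (adjusted p from 0.000246 to 0.00169, edgeR's quasi-likelihood test). Its call was thus not particular to leaving out replicate 24, and without any of replicates 45 to 49 it stayed below the filter. Without replicate 24, 4 of 5 genes of the list were called toward the ARC.

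Beyond the lists, the called genes with the smallest p-values toward the ARC were tightly grouped. *Sv2c*, a synaptic vesicle protein, had 75.4 to 90.4 CPM in the ARC and 25.6 to 39.5 CPM in the PVN (log2 difference -1.40, SE 0.12, adjusted p = 1.66e-07, edgeR's quasi-likelihood test). The long non-coding RNA *Dbpht2* had 76.5 to 119 CPM in the ARC and 27.7 to 49.9 CPM in the PVN, with replicate 24 highest of the PVN (log2 difference -1.48, adjusted p = 1.63e-06). *Igsf1*, an immunoglobulin-domain membrane protein, had 62.0 to 89.0 CPM in the ARC and 21.1 to 41.3 CPM in the PVN (log2 difference -1.44, adjusted p = 4.15e-06). *Sv2c*, *Dbpht2* and *Igsf1* did not overlap between nuclei and were called in every alternative that tested them.

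*Rxfp1*, a receptor of relaxin, had the largest difference of the receptors called, with 2.73, 7.64 and 26.1 CPM in the ARC and 0, 0.452 and 1.13 CPM in the PVN. The groups did not overlap, and the log2 difference of -4.42 (SE 0.59, adjusted p = 0.000157, edgeR's quasi-likelihood test) was called in every alternative fit. *Rxfp3*, the receptor of relaxin-3, differed the other way, with 5.33, 15.2 and 24.2 CPM in the PVN and 0.418, 2.98 and 5.91 CPM in the ARC (log2 difference 2.01, SE 0.50, adjusted p = 0.0257). Its call was lost without replicate 25, 26, 44, 46 or 48 (adjusted p from 0.0522 to 0.0609). Of the 28 tested neuropeptide receptors, 2 were higher in the PVN (*Rxfp3* and *Cckar*) and 2 were higher in the ARC (*Rxfp1* and *Prlr*). Over all tested genes, 2.91% were higher in the PVN and 3.5% in the ARC. *Prlr*, the prolactin receptor, had 18.5, 43.2 and 49.1 CPM in the ARC and 10.2, 15.9 and 21.2 CPM in the PVN (log2 difference -1.33, SE 0.21, adjusted p = 0.000286). *Cckar*, a cholecystokinin receptor, was lost without replicate 26, 45, 47 or 48 (adjusted p from 0.0502 to 0.0534).

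Of the 6 tested melanocortin and NPY receptor genes, 3 were higher in the ARC. *Npy2r*, through which NPY restrains its own release, had 19.1, 32.2 and 51.4 CPM in the ARC and 5.29, 7.68 and 21.2 CPM in the PVN, where replicate 24 was highest (log2 difference -1.70, SE 0.38, adjusted p = 0.0216). *Npy5r* had a log2 difference of -2.07 (adjusted p = 0.0255, lost without replicate 26, 27, 45, 46 or 49, with adjusted p from 0.051 to 0.0694). *Mc3r* had a log2 difference of -2.06 at an adjusted p of 0.0498, which was lost without any of replicates 23, 25 to 27 and 44 to 49 (adjusted p from 0.0563 to 0.126) and went to 0.000251 without replicate 24. *Mc4r*, the melanocortin receptor through which the PVN receives POMC and AgRP signals, had 0.156, 5.59 and 11.9 CPM in the PVN and 0.195, 0.978 and 5.22 CPM in the ARC. Replicate 24 held the lowest value, and the difference did not pass (log2 difference 1.46, SE 0.77, adjusted p = 0.309, and 0.0693 without replicate 24).

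Of the 9 tested metabolic hormone receptors, only *Igf1r*, the receptor of insulin-like growth factor 1, was called. It had 47.9, 69.1 and 86.9 CPM in the PVN and 24.8, 33.8 and 42.5 CPM in the ARC (log2 difference 1.07, SE 0.15, adjusted p = 0.000142, edgeR's quasi-likelihood test). *Insr*, the insulin receptor, was nearly level, at medians of 44.8 and 35.2 CPM (log2 difference 0.19, SE 0.14, adjusted p = 0.489). *Lepr*, the leptin receptor, had 1.48, 2.35 and 14.2 CPM in the PVN and 6.55, 12.8 and 267.5 CPM in the ARC. Replicate 44 held the highest ARC value, the other 5 ARC libraries held at most 28.6 CPM, and the highest PVN value was that of replicate 24. *Lepr* did not pass with all libraries (log2 difference -3.60, SE 1.17, adjusted p = 0.105) or without replicate 24 (adjusted p = 0.0721). It was called without both replicates 24 and 44 (log2 difference -2.37, adjusted p = 0.0029) and with all male libraries of the series in the fit (adjusted p = 0.0347). *Ghsr*, the ghrelin receptor, and *Glp1r*, the GLP-1 receptor, had log2 differences of -1.03 (adjusted p = 0.119, and 0.0343 without replicate 47) and 0.51 (adjusted p = 0.468).

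Steroid and nuclear receptors were called in both directions. *Esr1*, the oestrogen receptor α, had 15.0, 28.8 and 43.0 CPM in the ARC and 7.79, 9.50 and 10.7 CPM in the PVN, without overlap (log2 difference -1.65, SE 0.22, adjusted p = 7.11e-05, edgeR's quasi-likelihood test, and 0.0568 with chow-fed mice added). *Pgr*, the progesterone receptor, had 23.0, 32.9 and 39.9 CPM in the ARC and 6.16, 15.1 and 16.8 CPM in the PVN, also without overlap (log2 difference -1.20, SE 0.21, adjusted p = 0.00105). *Thrb*, a thyroid hormone receptor, had a log2 difference of -0.77 (adjusted p = 0.0117). *Nr2f1*, or COUP-TFI, whose family binds the AGGTCA letters shown above, had 14.9 to 25.9 CPM in the PVN and 3.95 to 16.3 CPM in the ARC (log2 difference 1.00, adjusted p = 0.0292). Its call was lost without replicate 23, 25, 46, 47 or 49 (adjusted p from 0.052 to 0.0571). Of 15 tested monoamine receptors, *Adra1b* and *Hrh1* were higher in the PVN and *Htr1a* in the ARC, beside 2.91% and 3.5% of all genes. Each lost its call in at least 1 fit that left out a library, *Adra1b* without replicate 26 (adjusted p = 0.0685), *Hrh1* without replicate 25, 26, 44, 45 or 49 (0.051 to 0.0581), and *Htr1a* without replicate 25 to 27, 44 or 48 (0.055 to 0.0647).

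**Figure D4:**
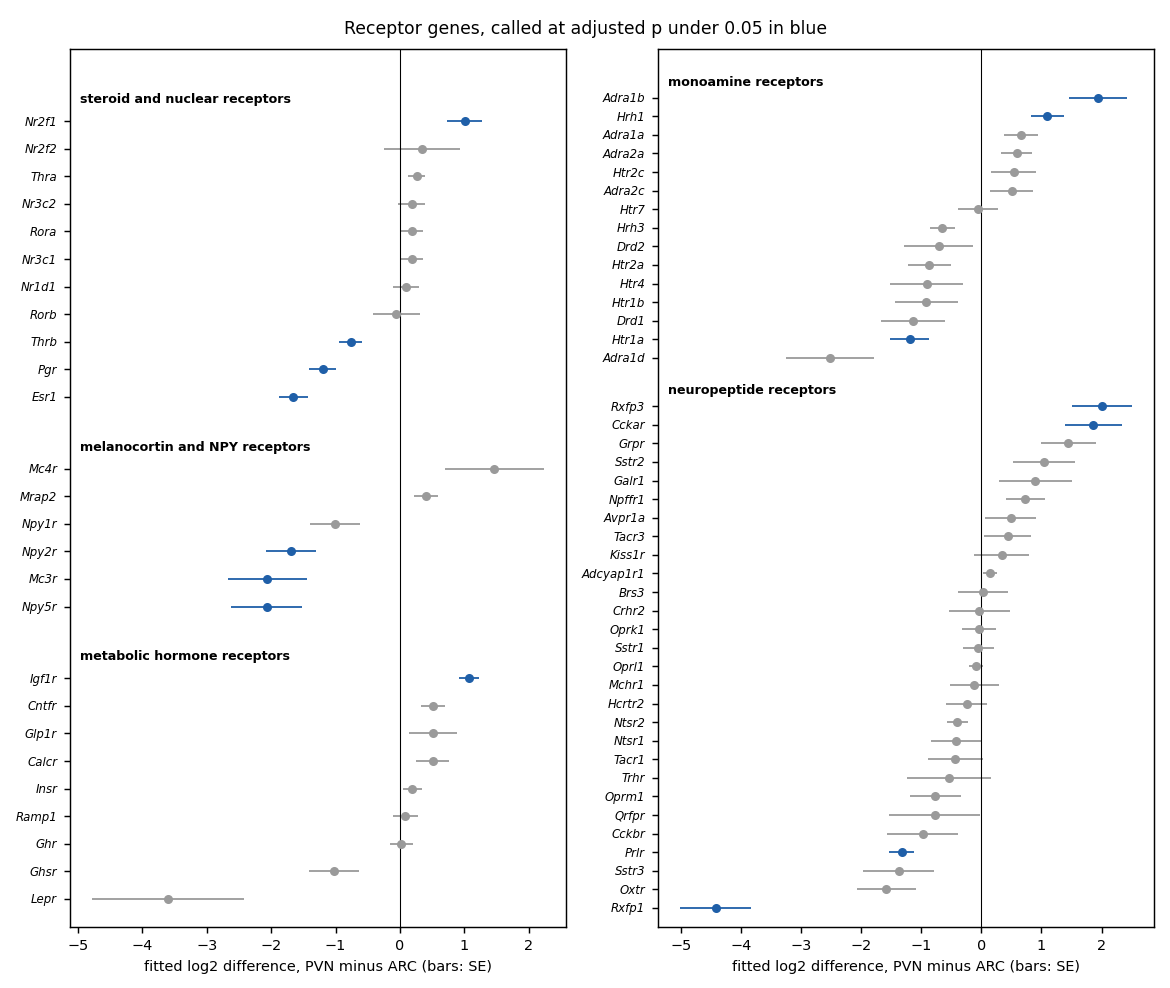
Fitted log2 differences, PVN minus ARC (x axis, bars show the SE), of tested receptor genes of 5 lists, each gene on its own line. Blue marks an adjusted p under 0.05, and most receptors lie within 1 log2 unit of 0, with *Rxfp1* at -4.42 and *Lepr* at -3.60 farthest toward the ARC.

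Genes of GABA transmission set PVN replicates 23 and 24 apart from the other PVN libraries. *Gad1*, an enzyme of GABA synthesis, had 92.9 and 145 CPM in PVN replicates 23 and 24 and 7.36 to 15.3 CPM in the other PVN libraries, against 101 to 189.9 CPM in the ARC. *Slc32a1*, the vesicular GABA transporter, followed the same pattern, at 54.6 and 63.9 CPM in these replicates, 3.25 to 5.80 CPM in the other PVN libraries and 33.0 to 79.3 CPM in the ARC. Neither passed with all libraries (adjusted p = 0.235 for *Gad1* and 0.478 for *Slc32a1*). *Slc17a6*, the glutamate transporter of most hypothalamic excitatory neurons, had 126 to 155 CPM in the PVN and 28.5 to 162 CPM in the ARC (log2 difference 0.64, SE 0.36, adjusted p = 0.361). *Nos1*, the neuronal nitric oxide synthase, was the only called gene of the 9 tested, with a log2 difference of 0.88 (adjusted p = 0.0403) that was lost without any of replicates 25 to 28, 44 to 46 and 49 (adjusted p from 0.0654 to 0.096). None of the 11 granins and peptide-processing genes was called, and *Pcsk2*, a prohormone convertase, came nearest (log2 difference 0.69, adjusted p = 0.0557). None of the 12 pan-neuronal and 15 housekeeping genes was called either, with list medians of 0.05 and -0.06 in log2 beside 0.00 over all tested genes.

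Markers of neighbouring tissue and of other cell types moved with the nuclei in part. Thalamus markers summed to 90.4 to 227 CPM in the PVN and 100.1 to 197 CPM in the ARC, and none of 5 tested was called. Ventromedial hypothalamus markers summed to 60.0 to 95.2 CPM in the PVN and 88.2 to 351 CPM in the ARC, with *Gda* called toward the ARC and *Fezf2* toward the PVN of 6 tested. Of that list, *Nr5a1*, its defining gene, had 0 to 1.54 CPM in the PVN and 0.414 to 18.9 CPM in the ARC. The lateral hypothalamus peptides *Pmch* and *Hcrt* summed to 0 to 31.2 CPM in the PVN, highest in replicate 24, and to 0.282 to 40.1 CPM in the ARC, and the 1 tested was not called. Suprachiasmatic markers summed to 35.9 to 115 CPM in the PVN, highest in replicate 24, and to 58.3 to 84.8 CPM in the ARC, with only *Six6*, which the ARC list also holds, called of 4 tested. Pituitary and pars tuberalis markers gave no call of 2 tested, and their summed level, 84.1 to 164 CPM in the PVN and 74.4 to 266 CPM in the ARC, is mostly *Chga*, which neurons also express. *Gh* and *Prl* were at or near 0 in all 12 libraries, with at most 0.0961 CPM. How far tissue beside the nuclei contributed to the differences was not tested.

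Tanycytes line the floor of the third ventricle next to the ARC. Of 9 tested markers 2 were higher in the ARC, beside 3.5% of all tested genes. *Dio2*, which activates thyroid hormone, had 3.71, 7.59 and 11.9 CPM in the ARC and 0.192, 0.900 and 1.23 CPM in the PVN (log2 difference -3.35, SE 0.44, adjusted p = 5.76e-05, edgeR's quasi-likelihood test). *Col23a1*, a collagen of the cell membrane, had 7.61, 13.1 and 27.8 CPM in the ARC and 0.513, 3.14 and 5.93 CPM in the PVN (log2 difference -2.39, SE 0.41, adjusted p = 0.00184, and 0.122 with chow-fed mice added). *Gpr50*, an orphan receptor of tanycytes and 1 of the genes that set replicate 24 apart, was called toward the ARC besides once that replicate was left out. This makes 3 of 9, and its adjusted p was 0.645 with all libraries and 6.16e-05 without replicate 24. The list summed to 63.3 to 106 CPM in the PVN and 76.6 to 200.2 CPM in the ARC, and *Rax*, its defining transcription factor, was near 0, at 0 to 1.09 CPM in the PVN and 0 to 4.13 CPM in the ARC. Ependymal markers summed to 4.61 to 8.89 CPM in the PVN and 6.26 to 34.2 CPM in the ARC, with *Hydin* called toward the ARC of 3 tested and *Tmem212* at 0 in all PVN libraries.

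The PVN is known for its dense capillary bed. Of 11 tested vascular markers 5 were called toward it, *Cldn5*, *Flt1*, *Slc2a1*, *Pecam1* and *Pdgfrb*, beside 2.91% of all tested genes. All 11 had a positive log2 difference, with a list median of 0.83 beside 0.00 over all tested genes. The summed levels overlapped, at 156 to 428 CPM in the PVN, lowest in replicate 24, and 119 to 187.5 CPM in the ARC. *Cldn5*, a tight junction protein of brain endothelium, had 7.80, 12.5 and 27.4 CPM in the PVN and 2.92, 5.75 and 7.28 CPM in the ARC, without overlap (log2 difference 1.54, SE 0.31, adjusted p = 0.00355, edgeR's quasi-likelihood test). *Flt1*, a receptor of VEGF, had a log2 difference of 0.99 (adjusted p = 0.0101). *Pecam1* was lost without replicate 25 to 27, 44 to 46, 48 or 49 (adjusted p from 0.0504 to 0.111), *Slc2a1* without replicate 25 to 27 or 45 (0.0519 to 0.0827), and *Pdgfrb* without replicate 25 to 27 or 44 to 48 (0.0571 to 0.149). With the non-coding share as a covariate, none of the 5 was called.

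Of 9 tested microglia markers, *C1qa* and *C1qb*, which encode complement subunits, were called toward the ARC, as were 3.5% of all tested genes. All 9 had a negative log2 difference, with a list median of -0.43 beside 0.00 over all tested genes. *C1qa* had 15.0, 18.2 and 19.9 CPM in the ARC and 4.52, 6.25 and 9.61 CPM in the PVN, without overlap (log2 difference -1.46, SE 0.22, adjusted p = 0.000193, edgeR's quasi-likelihood test). It was called in every alternative fit. *C1qb* was lost without any of replicates 24 to 28 and 45 to 48 (adjusted p from 0.0544 to 0.122). The microglia list summed to 89.7 to 119.9 CPM in the PVN and 119.5 to 175 CPM in the ARC. Of 10 astrocyte markers, *Aqp4*, a water channel, and *Slc1a2*, a glutamate transporter, were higher in the ARC, with log2 differences of -0.96 (adjusted p = 0.0178) and -0.62 (adjusted p = 0.00861). *Aqp4* was lost without replicate 25, 26 or 27 (adjusted p from 0.0532 to 0.0562). PVN replicate 23 held the highest PVN levels of both, 86.9 CPM of *Aqp4* and 1022 CPM of *Slc1a2*. The astrocyte list summed to 1292 to 2123 CPM in the PVN and 1639 to 2286 CPM in the ARC. None of 12 oligodendrocyte and 4 tested meningeal markers was called, with summed levels of 319.9 to 672 and 15.0 to 31.2 CPM in the PVN and of 349.8 to 792 and 10.5 to 51.3 CPM in the ARC. The part that cell composition has in the differences of the neuronal genes was not tested.

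Many other genes higher in the ARC are not protein-coding, and they were highest in the libraries with the most non-coding RNA. The share of non-coding RNA counts these same genes, so it is not independent of them. Counts on nuclear genes that are not protein-coding took 10.2% to 24.1% of the PVN libraries, highest in replicate 28, and 15.1% to 40% of the ARC libraries, highest in replicate 45. *Gm42418*, annotated as a long non-coding RNA gene, lies at chromosome 17 from 39846958 to 39848788. It alone had 12220, 30690 and 93910 CPM in the PVN and 86040, 133800 and 457500 CPM in the ARC. Which RNA gave these reads was not tested. The groups overlapped, and its log2 difference of -2.40 (SE 0.59, adjusted p = 0.0393) was lost without replicate 23 to 27, 44 or 46 (adjusted p from 0.0532 to 0.0945). Among the 64 genes at least 4-fold higher in the ARC that are not protein-coding, replicate 28 was the highest PVN library in 55 and replicate 45 the highest of all libraries in 62. Among the 64 that are protein-coding, these counts were 25 and 29. The largest of these differences was that of *Gm40893*, an antisense gene on the strand opposite *Kcnk10*, with 8.56, 20.8 and 131 CPM in the ARC and 0.0961, 0.465 and 4.11 CPM in the PVN (log2 difference -5.22, SE 0.98, adjusted p = 0.012, and 0.133 with quality weights). *Zfp648*, a protein-coding gene with the same replicates 28 and 45 highest, had 122, 234 and 1295 CPM in the ARC and 6.92, 15.9 and 91.2 CPM in the PVN (log2 difference -3.96, adjusted p = 0.0263, lost without replicate 25, 26 or 27, with adjusted p from 0.0594 to 0.069). With the log2 non-coding share of each library as a covariate, the log2 difference of *Zfp648* was -2.16. That of *Gm40893*, whose counts are part of the share, was -3.0. In the same fit *Pomc*, *Crabp1*, *Tbx3* and *Rxfp1* had -6.18, -5.87, -3.43 and -5.31. Other genes that lost their call in this fit are given below. *Hsp25-ps1*, *Gm26128*, *C030017G13Rik*, *Triml1*, *Gm29340*, *Snord110*, *Cubn*, *Gm25257* and *Gm20594* completed the 15 largest toward the ARC, with log2 differences from -4.34 to -3.96. Of these, *Gm26128* and *Gm25257* were not called without replicate 24 (adjusted p = 0.061 and 0.0552) or without the filter on low counts (0.0646 and 0.0587). *Snord110* and *Cubn* were not called with the covariate (0.113 and 0.169). With labelled weight as a block, described further on, *Hsp25-ps1*, *Gm26128*, *Gm29340*, *Gm25257* and *Gm20594* were not called (0.082 to 0.198).

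**Figure D5:**
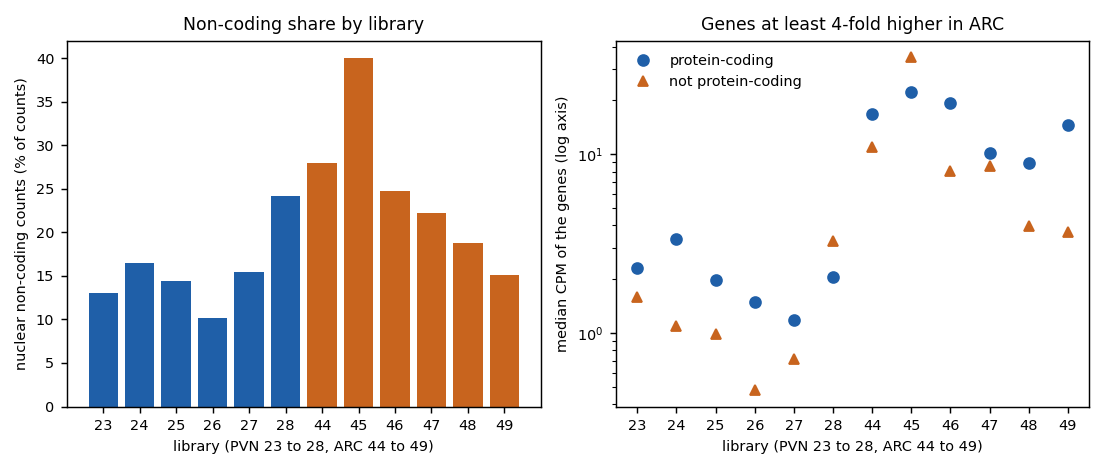
Left, the share of counts on nuclear genes that are not protein-coding (y axis, % of counts) in each PVN (blue) and ARC (orange) library. Right, the median CPM (log axis) in each library of the 64 protein-coding and the 64 other genes called at least 4-fold higher in the ARC, of which the latter run from 0.481 CPM in replicate 26 to 34.8 CPM in replicate 45.

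Calls of the reported genes were also lost under settings other than leaving out 1 library. The fits with chow-fed mice added and with all male libraries held PVN replicate 15 under its label, which its levels went against, as given below. Its part in the lost calls was not tested. For *Col23a1* it was the lowest chow-fed male PVN library, at 2.28 CPM without TMM factors against 12.2 and 5.45 CPM in replicates 13 and 14. With the non-coding share as a covariate 35 reported genes lost their call, at adjusted p-values from 0.0512 (*Pou3f2*) to 0.414 (*Pdgfrb*). Beside those given above, these were *Foxp2*, *Zic2*, *Nrn1*, *Nxph4*, *Nos1*, *Cartpt*, *Six3*, *Dlx6*, *Ddc*, *Thrb*, *Nr2f1*, *Rxfp3*, *Npy2r*, *Mc3r*, *Cckar*, *Hrh1*, *Adra1b*, *Htr1a*, *C1qb* and *Slc1a2*. With chow-fed mice added 19 lost their call (adjusted p from 0.0511 to 0.158), among them *Nr2f1*, *Npy5r*, *Mc3r*, *Cckar*, *Adra1b*, *Htr1a*, *Pecam1*, *Slc2a1*, *Pdgfrb* and *C1qb* beside those given above. With limma's quality weights 13 did (0.0511 to 0.475), of which *Nrn1* and *Rxfp3* are not given above. With all male libraries 11 did (0.0536 to 0.32), *Zic2*, *Dlx6*, *Prlr*, *Npy5r*, *Mc3r*, *Cckar*, *Htr1a*, *Pecam1*, *Slc2a1*, *Pdgfrb* and *C1qb*. With counts thinned to equal depth 9 did (0.0513 to 0.161), *Nos1*, *Dlx6*, *Nr2f1*, *Cckar*, *Hrh1*, *Htr1a*, *Pecam1*, *Pdgfrb* and *C1qb*. Without both replicates 24 and 44, *Nxph4*, *Nr2f1*, *Htr1a*, *Zfp648* and *Gm42418* were not called (0.0562 to 0.0944), and without the filter on low counts *Nxph4*, *C1qb* and *Gm42418* were not (0.0567 to 0.0657). Some genes not called with all libraries were called instead, *Tac2*, *Nkx2-1*, *Isl1*, *Bsx*, *Gad1* and *Slc32a1* with limma's quality weights (adjusted p at most 0.027), *Mc4r* without the filter (0.0277), and *Otp* with DESeq2, with all male libraries, with chow-fed mice added and without both replicates 24 and 44 (at most 0.0347).

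Some of the reported genes are given here in the wild-type libraries of other diets and pools, as CPM without TMM factors. No test was made, since diet, sex or pool differ. In the chow-fed male PVN, of the same pool as the HFD PVN, *Oxt* had 909, 659.7 and 0.489 CPM in replicates 13, 14 and 15. The library labelled PVN replicate 15 also held *Pomc* at 98.4 CPM and *Tbx3* at 28.3 CPM, and thus went against its label. It was kept as PVN in the fits with chow-fed mice added and with all male libraries. In 2 chow-fed male ARC libraries, of the same pool as the HFD ARC, *Oxt* had 2.69 and 0.502 CPM, *Pomc* 27.4 and 24.9 CPM, and *Agrp* 1.08 and 2.51 CPM. *Tbx3* had 5.92 and 12.8 CPM there, and *Crabp1* 0.538 and 3.77 CPM, both lower than in any ARC library on HFD. Chow-fed PVN replicates 13 and 14 held *Tbx3* at 3.76 and 9.15 CPM, so the chow-fed nuclei overlapped for this gene. Other genes called toward the ARC on HFD were not all higher in the chow-fed ARC than in these 2 PVN libraries. *Npy* (6.19 and 6.02 CPM against 0 and 1.09) and *Dio2* (4.84 and 4.02 against 0.940 and 0.654) were higher. *Col23a1* was lower (1.08 and 2.76 against 12.2 and 5.45). *Nr4a2* (1.88 and 0 against 1.88 and 4.58), *Esr1* (11.3 and 15.1 against 29.1 and 11.3) and *Sst* (42.0 and 49.7 against 48.9 and 62.1) overlapped. *Nr5a1*, of the ventromedial hypothalamus list, had 17.2 and 33.6 CPM in the chow-fed ARC and at most 12.9 CPM in the HFD ARC. The cause of these differences was not tested. In 4 chow-fed female PVN libraries of the third pool, *Oxt* had 1039 to 1647 CPM, *Avp* 502 to 1463 CPM, *Crh* 61.1 to 160 CPM and *Sim1* 94.9 to 219.6 CPM, while *Pomc* had 0.161 to 18.9 CPM and *Crabp1* at most 0.379 CPM. *Gm42418* had 6928 to 47090 CPM in these female libraries, 18060 to 61900 CPM in the chow-fed male PVN and 50190 and 70340 CPM in the chow-fed ARC.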

How the data were processed

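Laser-captured PVN and ARC of wild-type male mice on HFD were measured by total RNA sequencing of low-input stranded libraries, read as single-end reads. The deposited tables hold the authors' raw read counts per Ensembl gene, as whole numbers without normalization. STAR 2.5.0a and the GRCm38 build are named in the submitters' processing notes, and the counting tool, annotation release and strand setting are not given in the sources used here, so reads of a gene and of one antisense to it cannot be told apart. Groups and replicate numbers were taken from the labels. The 12 libraries were joined by Ensembl identifier, and 53274 of 53379 genes were matched to symbols in GENCODE vM21.

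Genes were filtered with a minimum count of 10, scaled by TMM and tested with edgeR's quasi-likelihood test (edgeR 4.0.16, R 4.3.3) with Benjamini-Hochberg adjusted p under 0.05 and nucleus as the only term. Log2 differences are PVN minus ARC with edgeR's prior count of 0.125, so those of genes near 0 in a nucleus depend on that count, and their SE was taken as the size of the difference divided by the square root of the F statistic. Alternatives used DESeq2 1.42.0, limma 3.58.1, other filters, other sets of libraries, libraries left out, thinned counts and 2 added terms. Depth ranged from 3592129 to 18058097 counts, and replicates of a group differed by more than counting noise. The fits were tested on simulated data. Named genes are members of 31 gene lists, the 15 largest called differences in each direction among genes of at least 10 CPM in the higher nucleus, and the 5 smallest p-values. A result on 1 receptor gene is not reported here. The members and lists were chosen with earlier results of these data known. Of the other wild-type libraries whose levels are given beside the comparison, 2 with totals under 1000000 counts (2302 and 271324) were left out, and the fits that added libraries left out totals under 25% of the median.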

Additional observations from a re-analysis of the deposited data

Results flagged for a closer look

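Of 176 gene and group combinations tested for a single library apart from the other 5 by Dixon's test, 25 were found. The cut-off is passed by about 1 in 20 of independent, normally distributed sets. These CPM values are neither, and the genes were those reported above, so the count was not set against chance. PVN replicate 24 accounted for 14 of them. It held less than the other PVN libraries of *Oxt* (1.09 CPM against at least 180.1 CPM), *Avp* (0.780 against 58.0), *Sim1* (13.9 against 97.8), *Pou3f2* (17.6 against 87.3), *Otp* (16.4 against 109.8), *Bhlhe22* (1.87 against 11.2), *Magi3* (41.8 against 62.6) and *Mc4r* (0.156 against 3.94). It held more of *Tac2* (8.42 CPM against at most 0.717 CPM), *Gal* (75.8 against 11.1), *Nkx2-1* (26.0 against 1.85), *Bsx* (15.9 against 0.410), *Gpr50* (34.5 against 1.44) and *Dbpht2* (49.9 against 32.0).

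PVN replicate 23 stood apart for *Th* at 6.76 CPM (the others at least 14.1), *Aqp4* at 86.9 CPM (at most 53.9) and *Slc1a2* at 1022 CPM (at most 628). PVN replicate 25 did so for *Pdgfrb* at 26.2 CPM (at most 15.7), replicate 26 for *Agrp* at 0.769 CPM (at most 0.156) and replicate 28 for *Pgr* at 6.16 CPM (at least 13.5). In the ARC, replicate 45 alone held *Crh*, at 0.971 CPM, and replicate 46 held *Npy* at 95.7 CPM (at most 21.3). ARC replicate 47 held *Prlr* at 18.5 CPM (at least 41.4), replicate 44 held *Cckar* at 0 CPM (at least 1.95) and replicate 48 held *Gpr50* at 3.34 CPM (at least 13.2).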

How the results depend on the processing

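Of 824 genes called with all libraries, the number became 1356 with DESeq2, 1345 without the filter on low counts, 1280 with labelled weight as a block in a fit that also left out replicates 24 and 44 (974 without these 2 and no block), 2719 at an adjusted p under 0.25 and 256 with the non-coding share as a covariate, an alternative chosen after seeing the data. Leaving out each library in turn gave 487 to 1166 called genes, lowest without PVN replicate 27 (487), 26 (489) or 25 (514) and highest without replicate 24. Of the 166 genes called with at least a 4-fold difference, the number became 460 with DESeq2, 417 without the filter, 106 among protein-coding genes only, 66 with the covariate and 122 to 231 with a library left out. Other settings gave 568 to 1191 called genes (limma 1191, thinned counts 614, all male libraries 568) and 111 to 223 with at least a 4-fold difference.

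Under the covariate the differences of *Glp1r* and *Nnat*, neither of them called, changed sign to -0.19 and 0.0745, and 35 of the 87 reported genes lost their call. Some genes named above, such as *Snord110* and *Cubn*, are not among the 87. RLE size factors changed none of the 87, and DESeq2 gave no adjusted p for *Nkx2-1*, *Lepr* and *Gpr50*. The nuclei share no replicate numbers, and the paired fit used as a block the 5 labelled weights that occur once in each nucleus. These pairs correlated at 0.00422 to 0.17, with 2 of 5 over 0.1. Among the PVN libraries, 3 of 5 correlated best with the ARC library of their own weight. So few pairs cannot decide whether the PVN and ARC came from the same mice. No label ties a weight to a mouse, so the block was not made part of the design. In this fit 10 reported genes were not called, *Trh*, *Ebf3*, *Foxp2*, *Sst*, *Rxfp3*, *Npy5r*, *Htr1a*, *Zfp648*, *Gm40893* and *Gm42418* (adjusted p from 0.0509 to 0.169), and 6 were called that had not been, *Tac2*, *Gal*, *Nkx2-1*, *Bsx*, *Lepr* and *Gpr50*. The causes of these changes were not tested. A gene with few counts in a nucleus, such as *Crh* in the ARC with 12, limits the size of its difference.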

Other observations

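The library labelled replicate 32, of an *Nnat*+/-p mouse, is named ARC in its label and lies in a table of the PVN, so it was put in no group. It held *Oxt* at 584 CPM, *Avp* at 277 CPM, *Crh* at 105 CPM, *Trh* at 129.0 CPM and *Sim1* at 159.5 CPM, without TMM scaling. It held *Pomc* at 2.45 CPM, *Agrp* at 0.816 CPM, *Npy* at 0 CPM, *Ghrh* at 2.58 CPM and *Tbx3* at 5.17 CPM, and *Nnat* at 4.76 CPM.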
